A study of Homo sapiens with 40 samples.

Results

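Tubulin isotypes are the alternative alpha, beta and gamma tubulins that different genes encode, and 10 of those genes were followed here across 3 single-cell RNA-seq protocols. The 10 were TUBA1A, TUBA1B, TUBA1C and TUBA4A for alpha tubulin, TUBB, TUBB2A, TUBB3, TUBB4B and TUBB6 for beta tubulin, and TUBG1 for gamma tubulin. They were chosen by name, with no measured value in the rule, out of 60279 genes listed in each count table. The cells were T47D, a human luminal breast cancer line, at passage 10, stained and sorted by flow cytometry as EpCAM+ and CD49f+ single cells. Whether all protocols drew on 1 culture and 1 sort is not given in the sources used here. In the G&T group (13 cells) mRNA was pulled away from genomic DNA before reverse transcription. In the Takara group (13 cells) the SMART-seq HT kit joined reverse transcription and amplification in 1 step, and in the NEB group (14 cells) the NEBNext low-input kit was used from lysis to final library. G&T and Takara libraries were finished with Nextera XT. All cells were untreated and received the same ERCC spike-in RNAs. A protocol was run once, on its own plate and in its own sequencing run. A difference between protocols cannot be told apart from one between runs, or between cultures or sorts if these differed. Each protocol counts as 1 sample, and no test was made between them.

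By the study's quality limits 11 cells per protocol were kept. Reads on genes ranged from 658154 to 1166633 in kept G&T cells, from 818512 to 1287911 in Takara cells and from 624772 to 963816 in NEB cells. The median share of ERCC reads was 11.9% among NEB cells, 1.80% among G&T cells and 0.977% among Takara cells. All 8 luminal epithelial markers looked for had reads in every protocol. Of 9 leukocyte, endothelial and fibroblast markers, 6 had reads in G&T (153 reads in all), and only COL1A1 had any in Takara (148 reads) and in NEB (86 reads).

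Microtubules are polymers of a dimer of alpha and beta tubulin. Gamma tubulin sits in a ring complex that templates their assembly, at the centrosome and elsewhere. The isotypes are nearly alike in their folded body and differ most in the acidic tail at the carboxyl end, where motors and modifying enzymes act. Cells keep the amount of tubulin mRNA in balance with free dimer: when free dimer is in excess, TTC5 recognises the first residues of a nascent tubulin chain and the message is degraded. Dividing cells rebuild their microtubules into a spindle, and TUBB and TUBB4B are broadly expressed beta isotypes. TUBB3 is best known from neurons, TUBB2A from nerve tissue, and TUBA4A from muscle, brain and platelets.

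The end of the coding sequence of the beta genes is shown because it encodes the tail by which the isotypes are told apart. Each line holds the last 60 coding bases, 5′ to 3′ in the sense of the mRNA, stop codon included, read from the GENCODE release 44 transcripts on GRCh38. Capitals mark bases that differ from TUBB after alignment.
TUBB: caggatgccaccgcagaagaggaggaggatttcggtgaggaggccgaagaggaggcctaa
TUBB2A: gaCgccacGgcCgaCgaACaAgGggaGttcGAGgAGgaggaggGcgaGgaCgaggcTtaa
TUBB3: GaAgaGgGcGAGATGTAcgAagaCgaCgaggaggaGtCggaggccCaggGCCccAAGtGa
TUBB4B: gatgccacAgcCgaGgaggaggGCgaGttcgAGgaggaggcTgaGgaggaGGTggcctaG
TUBB6: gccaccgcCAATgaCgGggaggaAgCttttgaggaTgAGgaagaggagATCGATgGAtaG
The other beta genes differed from TUBB at 14 of these bases (TUBB4B) to 25 (TUBB3).

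The first 12 coding bases encode the start of the chain on which the TTC5 pathway acts. They are printed in capitals throughout, since the whole stretch is what is compared.
TUBA1A, TUBA1B and TUBA1C: ATGCGTGAGTGC
TUBA4A: ATGCGTGAATGC
TUBB and TUBB4B: ATGAGGGAAATC
TUBB3 and TUBB6: ATGAGGGAGATC
TUBB2A: ATGCGCGAGATC
TUBG1: ATGCCGAGGGAA
By bases, the 3 clustered alpha genes began alike and TUBA4A stood apart, the beta genes fell into 3 versions, and TUBG1 shared none of these. The differences within a family do not change the encoded residues, which are MREC in every alpha gene and MREI in every beta gene. TUBG1 encodes MPRE.

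TUBA1A (ENSG00000167552), TUBA1B (ENSG00000123416) and TUBA1C (ENSG00000167553) lie on chromosome 12 at 49184686 to 49189080, 49127782 to 49131397 and 49188736 to 49274600, the first pair on the minus strand and TUBA1C on the plus strand. TUBA4A (ENSG00000127824) is on the minus strand of chromosome 2, at 219249710 to 219277902. TUBB (ENSG00000196230) is on the plus strand of chromosome 6, at 30717435 to 30725538, and TUBB2A (ENSG00000137267) on the minus strand of the same chromosome, at 3153497 to 3157544. TUBB3 (ENSG00000258947) is on chromosome 16 at 89921392 to 89938761, TUBB4B (ENSG00000188229) on chromosome 9 at 137241287 to 137243707, TUBB6 (ENSG00000176014) on chromosome 18 at 12307669 to 12344320 and TUBG1 (ENSG00000131462) on chromosome 17 at 42609641 to 42615238, all on the plus strand. The counts cover exons only.

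Because the counter set aside reads that map to several places or to overlapping genes, the shared sequence bears on how the counts can be read. Cut into 75-base windows, the transcript of TUBA1B had 48.4% of its windows also in transcripts of genes elsewhere in the genome, most of them in TUBA1A, and TUBA1A had 25.7%. TUBB2A had 59.5%, most of them in TUBB2B, TUBG1 had 20.4%, in TUBG2, and TUBA1C had 14.9%. TUBB, TUBB4B and TUBB3 had 8.97%, 5.64% and 6.80%, while TUBA4A and TUBB6 had none. These shares leave out genes that overlap the same locus, such as TUBA1A for TUBA1C. With those genes included, the shares of 75-base windows were 77.2% for TUBA1B, 36.5% for TUBA1C, 33.0% for TUBA1A, 31.2% for TUBA4A and 24.0% for TUBB. In longer windows of 150 bases the shares elsewhere were smaller, at 19.1% for TUBA1B, 6.96% for TUBA1A, 48.7% for TUBB2A and 6.24% for TUBG1. TUBA1C had 6.62%, TUBB 2.66% and TUBB3 2.31%, while TUBB4B, TUBA4A and TUBB6 had none. Longer reads are thus less affected than the 75-base shares show. Over the whole coding sequence TUBA1A and TUBA1B were 97.2% identical, and the beta pairs were 81.0% (TUBB and TUBB6) to 87.7% (TUBB2A and TUBB3) identical. TUBA1B-AS1 on the opposite strand covers 1571 of the 3574 exon bases of TUBA1B and had 39 reads in G&T against 17 in Takara and 0 in NEB. TUBB3 is a special case, since another listed gene on its own strand shares its sequence so that 92.6% of its windows were not unique, and that gene also had 0 reads in every protocol. Counts of TUBA1B, TUBA1C, TUBB2A and above all TUBB3 are therefore uncertain, and whether strand was used in counting is not given in the sources used here. Without strand, reads of a gene and of its antisense partner cannot be told apart, which bears on TUBA4A too, as most of its shared windows were in STK16 on the opposite strand.

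The alpha genes had reads in every kept G&T and Takara cell, and TUBA1A and TUBA1B carried most of the alpha tubulin reads per kb of transcript. Levels are in CPM, read counts scaled to the total of reads on genes, taken over the summed reads of the 11 kept cells and given with a 95% Poisson interval, which covers counting error only. TUBA1A, best known from developing neurons, ranged from 34.2 to 662 CPM among G&T cells (median 363), from 170 to 833 among Takara cells (median 285) and from 0 to 328 among NEB cells (median 108). These ranges overlapped in every pair, and the pooled levels were 299 CPM in G&T (288 to 310) against 316 in Takara (306 to 326) and 120 in NEB (113 to 128). TUBA1B, a ubiquitous alpha isotype, ranged from 128 to 474 CPM in G&T (median 245), from 239 to 646 in Takara (median 526) and from 0 to 163 in NEB (median 51.5). No NEB cell reached the lowest Takara cell, while NEB and G&T cells overlapped. Pooled TUBA1B was 1.84-fold higher in Takara than in G&T (1.76 to 1.93) and 7.67-fold higher in Takara than in NEB (7.01 to 8.41).

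TUBA1C, which lies head to head with TUBA1A, had the same pooled level in Takara and G&T within counting error, and was close to missing in NEB. It ranged from 85.8 to 597 CPM in G&T (median 308) and from 96.6 to 653 in Takara (median 255), and in NEB only 5 of 11 cells had a read, at up to 34.5 CPM. Every NEB cell lay below every G&T and every Takara cell. Pooled, Takara over G&T was 1.01-fold (0.957 to 1.06). The pooled level was 305 CPM in G&T against 307 in Takara and 9.91 in NEB (7.84 to 12.3), 30.8-fold (24.6 to 39.0) and 31.0-fold (24.8 to 39.2) lower in NEB. TUBA4A was the lowest alpha gene per kb in all protocols. Its range was 1.52 to 193 CPM in G&T (median 34.1) and 4.44 to 221 in Takara (median 58.8). In NEB all 28 TUBA4A reads came from 1 cell, A1, and without it the level was 0, so that the NEB value of 3.51 CPM rests on a single cell. In G&T, 41.8% of the TUBA4A reads came from cell C1, and with the top cell of each protocol left out the Takara over G&T difference moved from 0.72 to 1.08 on the log2 scale.

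Among the beta genes TUBB and TUBB4B were the most abundant, and they parted in NEB. TUBB ranged from 364 to 1401 CPM in G&T (median 686), from 432 to 1685 in Takara (median 1148) and from 0 to 384 in NEB (median 225). It had reads in 10 of 11 NEB cells, and no NEB cell reached the lowest Takara cell. Pooled TUBB was 711 CPM in G&T (694 to 728) against 1068 in Takara (1049 to 1087) and 219 in NEB (209 to 229). TUBB4B, the beta isotype that also builds cilia, ranged from 115 to 779 CPM in G&T (median 405), from 215 to 2233 in Takara (median 911) and from 0 to 56.0 in NEB (median 12.2). Every NEB cell lay below every cell of the other protocols. Pooled TUBB4B was 2.63-fold higher in Takara than in G&T (2.53 to 2.72), 21.5-fold lower in NEB than in G&T (18.3 to 25.5) and 56.5-fold lower in NEB than in Takara (48.1 to 66.9).

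The remaining beta genes were low. TUBB6, a broadly expressed minor beta isotype, ranged from 3.14 to 200 CPM in G&T (median 69.6) and from 47.9 to 246 in Takara (median 142). In NEB it had 19 reads in 2 cells, 84.2% of them in cell A2. TUBB2A ranged from 0 to 41.8 CPM in G&T (median 12.2), with reads in 9 of 11 cells, and from 0 to 183 in Takara (median 56.9), with reads in 10 of 11. No NEB cell had a TUBB2A read, and a count of 0 allows up to 0.376 CPM over the kept NEB cells when 3 reads are taken as the limit. On that limit pooled TUBB2A was at least 36.1-fold lower in NEB than in G&T and at least 172-fold lower than in Takara. TUBB3 had 4 reads in 1 G&T cell (D1), 1 read in 1 Takara cell (A1) and none in NEB. Given its shared sequence, these tables do not measure the TUBB3 level.

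TUBG1, which encodes the gamma tubulin of the nucleating ring, followed the same order of protocols. It ranged from 92.3 to 398 CPM in G&T (median 222), from 272 to 1072 in Takara (median 535) and from 0 to 158 in NEB (median 23.8). Takara and NEB cells did not overlap, while G&T overlapped with both. The pooled level was 233 CPM in G&T (224 to 243) against 608 in Takara (594 to 622) and 48.9 in NEB (44.2 to 54.0), so Takara stood 2.60-fold above G&T (2.48 to 2.73) and 12.4-fold above NEB (11.2 to 13.8).

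**Figure D1:**
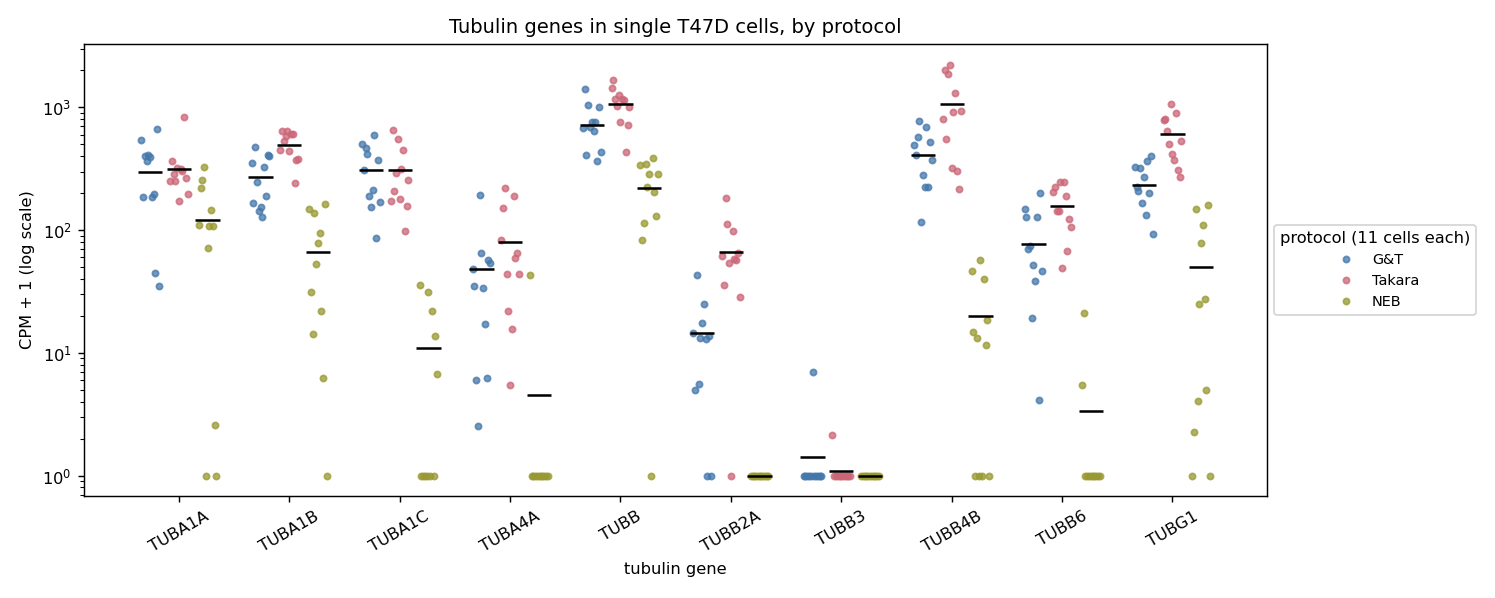
Each point is 1 kept cell (11 per protocol), with CPM + 1 on a log scale against the tubulin gene, and black bars mark the pooled level. The NEB bar is the lowest of the 3 for the 9 genes other than TUBB3, with many NEB cells at 0 (drawn at 1), and TUBB3 is at or near 0 in all protocols.

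Summed over alpha and beta genes, tubulin made up 914 to 3230 CPM of a G&T cell (median 2434), 1920 to 5775 CPM of a Takara cell (median 3471) and 202 to 825 CPM of a NEB cell (median 365). The highest NEB cell was below the lowest cell of both other protocols, and Takara and G&T cells overlapped. Pooled, the sum was 2128 CPM in G&T (2099 to 2158) against 3551 in Takara (3517 to 3586) and 439 in NEB (424 to 453). The Takara sum was 1.67-fold above G&T (1.64 to 1.70), and the NEB sum was 4.85-fold below G&T (4.68 to 5.03) and 8.10-fold below Takara (7.82 to 8.38). By family, beta tubulin was 9.81-fold lower in NEB than in Takara (9.36 to 10.3) and alpha tubulin 6.04-fold lower (5.73 to 6.36). Against G&T the families were closer, with beta 5.03-fold lower in NEB (4.79 to 5.28) and alpha 4.64-fold lower (4.40 to 4.90).

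For a view against the other genes, pooled levels were compared as log2 ratios after adding 1 CPM, over 13064 genes with a mean of at least 1 CPM across the protocols, and a gene was called when the ratio was at least 2-fold. TUBB3 was below that mean, so 9 of the 10 tubulin genes entered. TUBB2A entered through its G&T and Takara reads alone, so its gap to NEB follows in part from the filter, whereas the other 8 also had at least 1 CPM in NEB. The 3 comparisons share their pools of cells and are not independent of each other.

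In Takara over G&T, 4 of the 9 were called higher (TUBB2A, TUBB4B, TUBG1 and TUBB6, at 2.17, 1.39, 1.38 and 1.02 log2) and 0 lower, where 17.4% of all genes were called higher and 20.9% lower. Their median was 0.88 log2 against -0.03 for all genes. TUBA1A (0.08) and TUBA1C (0.01) lay at the middle of all genes, and their sign turned when median cell levels were used (-0.35 and -0.27) or mitochondrial reads were left out of the total (-0.02 and -0.09). TUBB6 is a borderline call: it was 0.94 log2 with mean cell levels and 0.92 without mitochondrial reads. For 0 tubulin genes did the cell ranges of Takara and G&T not overlap, where 1.42% of all genes were higher and 0.75% lower in Takara without overlap.

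In NEB over G&T all 9 were called lower and 0 higher, where 44.4% of all genes were lower and 20.2% higher, with a median of -3.43 log2 against -0.67. The range ran from -1.30 for TUBA1A to -4.81 for TUBA1C, and TUBB6 (-4.52), TUBB4B (-4.36), TUBA4A (-3.43), TUBG1 (-2.23), TUBA1B (-2.04) and TUBB (-1.70) lay between. Cell ranges did not overlap for 2 genes, TUBA1C and TUBB4B, against 3.75% of all genes that were lower and 1.16% that were higher in NEB without overlap. In NEB over Takara all 9 were again called lower and 0 higher, where 41.8% of all genes were lower and 23.1% higher, with a median of -4.15 log2 against -0.51. TUBB2A (-6.04, against 0 NEB reads), TUBB4B (-5.75) and TUBB6 (-5.54) had the lowest ratios and TUBA1A (-1.38) the highest. Cell ranges did not overlap for 6 genes (TUBA1B, TUBA1C, TUBB, TUBB4B, TUBB6 and TUBG1), against 8.71% of all genes that were lower and 1.67% that were higher without overlap. These counts without overlap became 0 when the removed wells were added back.

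**Figure D2:**
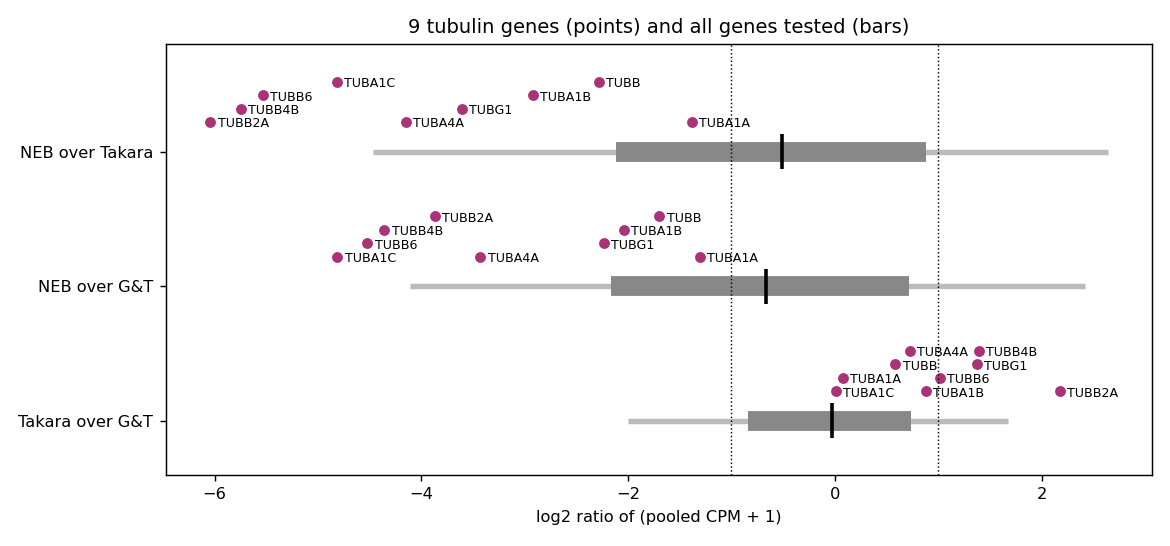
Points are the log2 ratios of pooled CPM + 1 for the 9 tubulin genes, set above bars for all 13064 genes (thick, middle 50%; thin, 5th to 95th percentile; black tick, median), with dotted lines at a 2-fold ratio. In both NEB comparisons the points lie left of the median of all genes, and between Takara and G&T they lie at or right of it.

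Detection in single cells was lower in NEB, for the tubulin genes and for all genes tested. Of the 9 genes, 8 had reads in every kept G&T cell and 8 in every kept Takara cell, where 42.7% and 50.6% of all tested genes did. TUBB2A was the exception in both. In NEB 0 of the 9 were found in every cell, where 10.6% of all genes were, and for 9 genes 0 is close to that share. By the median over genes, the 9 had reads in 7 of the 11 NEB cells, where all tested genes had reads in 3. In G&T and Takara this median was 11 in both for the 9, against 10 and 11 for all tested genes. A G&T cell had reads of 8 to 10 of the 10 tubulin genes, a Takara cell also 8 to 10, and a NEB cell 2 to 7 (median 5). At the depth of the smallest kept cell, the expected number found in every cell was 7.90 in G&T against 7.98 in Takara and 0 in NEB. The spread between cells, as a coefficient of variation, had a median over the 9 genes of 52.8% in G&T and 55.3% in Takara, where all genes had 91.7% and 70.8%. In NEB it was 119% over the 8 genes with reads, against 180% for all genes. Detection and this spread both depend on how many reads a gene has. The tubulin genes were not compared with genes of like level, so these gaps do not show that tubulin genes are unusually even between cells.

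Because levels of different genes can be compared only per length, each gene's reads were divided by the length of its reference transcript in kb, and the share of each isotype was taken within its family. In Takara cells TUBA1B led the alpha family with 47.6% of the reads per kb, followed by TUBA1A (29.4%), TUBA1C (17.0%) and TUBA4A (6.02%). TUBA1B led in 10 of 11 Takara cells, and the exception, cell E2, had 70.4% TUBA1A. In G&T cells TUBA1A (37.5%) and TUBA1B (34.9%) were about level, with TUBA1A leading in 7 cells, TUBA1B in 3 and TUBA1C in 1. Without length scaling TUBA1C came to 33.1% in G&T and 25.6% in Takara, since its transcript is the longest of the family. The shares divide by the whole transcript, though reads in sequence shared with other genes were set aside. Of the 75-base windows 77.2% were shared for TUBA1B and 33.0% for TUBA1A, and in the beta family 59.5% for TUBB2A and 0 for TUBB6. Shares of genes with much shared sequence can be too low, so the order of TUBA1A and TUBA1B is uncertain.

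NEB cells were the most uneven. The pooled alpha share was 61.5% TUBA1A and 34.0% TUBA1B, but per cell TUBA1A ran from 0 to 95.2% and TUBA1B from 0 to 100%. Cells C2 and H2 had no TUBA1A read, H2 had only 4 alpha reads, all of TUBA1C, and G2 had 102 reads of TUBA1B beside 1 of TUBA1A. Cell D2 had 62 TUBA1B and 71 TUBA1A reads but none of any beta gene. Reads are not molecules here, since no molecular identifiers were used.

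In the beta family TUBB and TUBB4B together held most reads per kb. TUBB4B was ahead in Takara (55.4% against 34.6% for TUBB) and TUBB in G&T (47.8% against 43.8%). This order depends on the length used: by the merged exons of a gene TUBB4B came first in both, with TUBB at 43.9% in G&T and 31.0% in Takara. Without length scaling TUBB came first in G&T (58.9% against 33.6%), and the pair was level in Takara (45.4% against 45.2%). Within G&T, TUBB led in 6 cells and TUBB4B in 5, and within Takara in 4 and 7, so the order varied from cell to cell. In NEB, TUBB held 86.7% and led in all 10 cells that had a beta read, and TUBB4B had a median of 10.9% over them. TUBB6 had a share of 6.90% in G&T and 6.76% in Takara and of 1.26% in NEB, while TUBB2A had 1.42%, 3.26% and 0. Beta over alpha reads per kb came to 1.24 in G&T against 1.91 in Takara and 0.856 in NEB, and exceeded 1 in 8, 10 and 5 of 11 cells. TUBG1 stood at 13.6%, 20.2% and 14.0% of the alpha and beta sum per kb. These values also divide by the whole transcript, though reads in shared sequence were set aside. Of the 75-base windows 77.2% were shared for TUBA1B, 36.5% for TUBA1C and 33.0% for TUBA1A, against 24.0% for TUBB and 20.4% for TUBG1. TUBB2A (59.5%) and TUBB3 (92.6%) were also high, but held few of the beta reads. The alpha sum can therefore be too low, so whether beta exceeded alpha, and the size of the TUBG1 share, are uncertain.

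**Figure D3:**
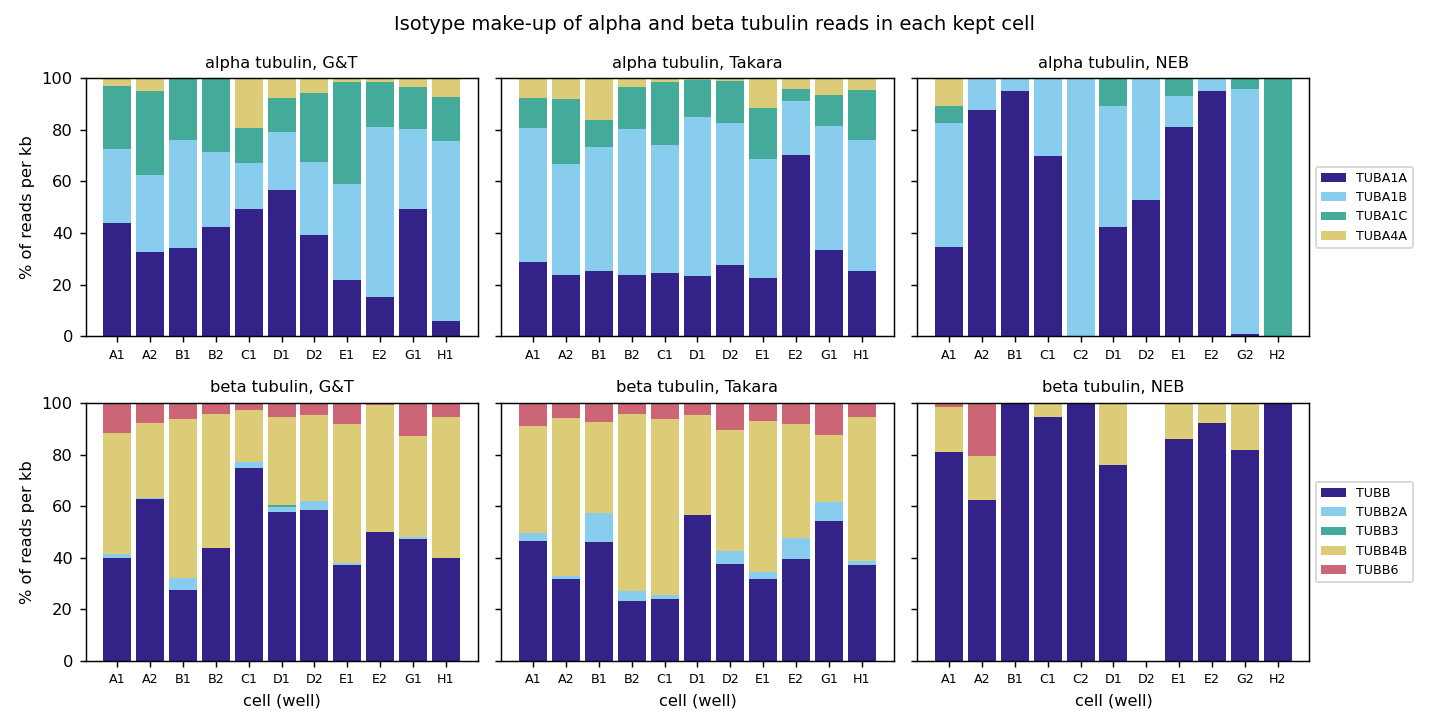
Each bar is 1 kept cell (well on the horizontal axis) and shows the percent of alpha (top) or beta (bottom) tubulin reads per kb that fell on each isotype. G&T and Takara cells hold a mix, led by TUBA1B in 10 of 11 Takara cells, while NEB cells are made up of 1 to 4 alpha genes and mostly TUBB, and NEB cell D2 has no beta read.

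The tubulin genes were then set against the summed CPM of 25 G2 and mitosis genes, which hold no tubulin, across the 11 cells of each protocol. Spearman rho is given as a description without p, since all points of a protocol share 1 plate and run. Genes with reads in at least 6 cells were used. TUBB had a rho of 0.86 in G&T against 0.81 in Takara and 0.68 in NEB, and TUBB4B had 0.63, 0.94 and 0.85. The alpha and beta sum had 0.81, 0.94 and 0.65. A rho of at least 0.5 was seen for 20.2% of all genes in G&T against 10.6% in Takara and 6.57% in NEB. With any single cell left out, TUBB stayed between 0.58 and 0.90 over the protocols and TUBB4B between 0.56 and 0.95.

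TUBB4B showed this in single cells of Takara and NEB, and less evenly in G&T. In Takara the 3 cells with the lowest mitotic sum (200 to 488 CPM) had 215 to 321 CPM of TUBB4B, and the highest cells, C1 and A2, had 2233 and 2019 CPM beside mitotic sums of 18449 and 21689 CPM. In NEB the 4 cells without a TUBB4B read (B1, D2, C2 and H2) were the 4 with the lowest mitotic sums, from 112 to 2134 CPM, and the 7 cells with reads had sums of 2745 CPM or more. In G&T the cell with the lowest mitotic sum, D2 (499 CPM), had 225 CPM of TUBB4B, above C1 with 115 CPM at a sum of 2978 CPM. Cell A2, with the highest sum (16440 CPM), had 405 CPM, while B2 had the most TUBB4B (779 CPM) at a sum of 16109 CPM. TUBB6 had a rho of 0.74 in G&T and 0.76 in Takara, and TUBG1 had 0.72 and 0.83 in these but -0.07 in NEB.

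The alpha genes were mixed. TUBA1B and TUBA1C both had a rho of 0.89 in Takara, with 0.14 and 0.56 in G&T and 0.32 for TUBA1B in NEB. In G&T the TUBA1B value ran from -0.15 to 0.30 with single cells left out. TUBA1A (0.35, 0.23 and 0.10), TUBA4A (-0.06 in G&T and 0.14 in Takara) and TUBB2A (-0.18 and -0.07) were weak in every protocol, and weak correlations of this size over 11 cells are no finding. For TUBA1A in Takara the value was 0.64 without cell E2 and -0.19 as Pearson's r on log2 values. In G&T the mitotic sum itself went with depth (rho of -0.78 with reads on genes, against 0.10 in Takara and 0.07 in NEB), and TUBB (-0.73) and TUBG1 (-0.69) did too. The part of depth in the G&T values was not tested. With reads per ERCC read in place of CPM, the G&T values were 0.89 for TUBB, 0.69 for TUBB4B and 0.83 for TUBG1. There the gene and the mitotic sum were divided by the same ERCC reads, which by itself can raise rho. These values therefore do not separate out depth.

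**Figure D4:**
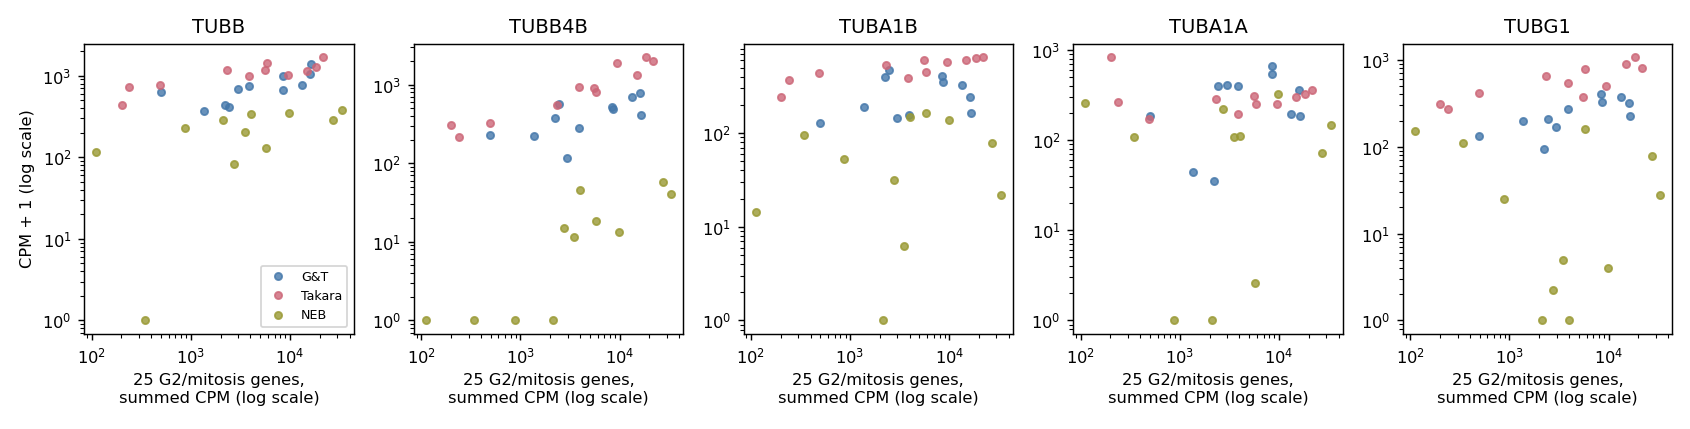
Each point is 1 kept cell, with CPM + 1 of a tubulin gene against the summed CPM of 25 G2 and mitosis genes, both on log scales. TUBB and TUBB4B climb with the sum in all protocols, with rho from 0.63 to 0.94, TUBA1B does in Takara (0.89), TUBG1 in G&T and Takara (0.72 and 0.83), and TUBA1A shows no clear slope (0.10 to 0.35).

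Among 4416 other genes with reads in at least 6 cells of every protocol, those most like the alpha and beta sum, by the mean of the 3 within-protocol rho values, were KPNA2, an importin (0.88), TPX2, a spindle assembly factor (0.85), SPC24, a kinetochore protein (0.83), NUSAP1, a spindle protein (0.83), and BUB3, a checkpoint protein (0.82). For TUBB4B they were BIRC5, or survivin (0.86), CCNB1, the mitotic cyclin B (0.86), KPNA2 (0.86), NUSAP1 (0.84) and H3-3B, a replacement histone (0.82). TPX2, NUSAP1, BIRC5 and CCNB1 are also among the 25 genes.

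Other tubulin genes were few and low. Of 12 looked at, 4 passed the filter. TUBG2, the second gamma gene, was at 24.9, 56.3 and 16.6 CPM in G&T, Takara and NEB. TUBD1 and TUBE1 encode the delta and epsilon tubulins of centrioles, and unlike the 9 genes above their pooled level was not lower in NEB: TUBD1 was at 31.5, 25.6 and 38.5 CPM and TUBE1 at 14.7, 27.9 and 46.5 CPM. These NEB levels came from few cells, since TUBD1 had reads in 10, 11 and 5 of the 11 cells of G&T, Takara and NEB, and TUBE1 in 9, 11 and 4. TUBB2B had 4.11 and 0.597 CPM in G&T and Takara and 0 in NEB.

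The genes whose products work with tubulin are given by list, and each count is to be read beside the 23.1% of all genes called higher and the 41.8% called lower in NEB than in Takara. Of 15 chaperonin and prefoldin genes, which fold nascent tubulin, 2 were called higher and 3 lower in NEB than in Takara, with a median of 0.16 log2. CCT6A, CCT2 and CCT3, the most abundant, were at 953, 618 and 525 CPM in G&T, 1041, 634 and 829 in Takara and 1159, 459 and 211 in NEB. Of 7 folding cofactors measured, 0 were called higher and 2 lower in NEB than in Takara (median -0.65), TBCD at 57.4 against 0.376 CPM and ARL2 at 76.0 against 23.7 CPM. TBCA, TBCB and TBCC, the most abundant, had log2 ratios of NEB over Takara of -0.65, -0.99 and 0.72. TTC5 had 12.5 CPM in G&T against 18.7 in Takara and 31.0 in NEB, where 3 of 11 cells had reads (8 in G&T and 10 in Takara).

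Of 11 genes of the gamma tubulin ring and its anchors, 1 was called higher and 7 lower in NEB than in Takara (median -1.32 log2). PCNT, which anchors the ring at the centrosome, was the one higher (133 against 46.3 CPM), and NEDD1 (64.2 against 95.7 CPM) was not called, while CDK5RAP2 (7.02 against 37.3 CPM) was called lower. Of 18 microtubule-associated proteins 5 were called higher and 7 lower (median -0.07), close to the shares of all genes. STMN1, which sequesters dimers, had 454, 1027 and 868 CPM in G&T, Takara and NEB, TPX2 had 476, 434 and 351, and MAPRE1, a plus-end protein, had 178, 239 and 420. Of 17 tubulin modifying enzymes 5 were called higher and 6 lower (median -0.44), also near those shares. TTLL5, a glutamylase, had 71.1, 33.7 and 69.7 CPM, SPAST, a severing enzyme, had 17.2, 3.33 and 96.2, and KATNA1, another, had 29.3, 47.8 and 37.9.

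The base composition of the transcripts moved with the NEB ratios. Over the 12939 tested genes with a sequence, Spearman rho between transcript GC content and the log2 ratio was -0.57 for NEB over G&T and -0.58 for NEB over Takara, against 0.12 for Takara over G&T. This is a correlation across genes, which are not independent replicates. The 9 tubulin genes had GC contents of 50.2% (TUBA1C) to 59.3% (TUBB4B), above the median of 47.8%. In the quintile of genes from 51.1% to 57.7% GC, the median NEB over Takara ratio was -1.57 log2, and TUBA1A (-1.38), TUBA1B (-2.92), TUBG1 (-3.61), TUBA4A (-4.15) and TUBB6 (-5.54) fell in it. In the quintile above that the median was -2.49 log2, beside TUBB4B and TUBB2A at -5.75 and -6.04. TUBB and TUBA1C, in the quintile from 45.2% to 51.1% GC, had -2.28 and -4.82 beside a median of -0.42. TUBD1 (40.7% GC) and TUBE1 (38.2%), at 0.57 and 0.72 log2, lay in quintiles with medians of 0.27 and 0.95. The part of GC content in the tubulin values was not tested.

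**Figure D5:**
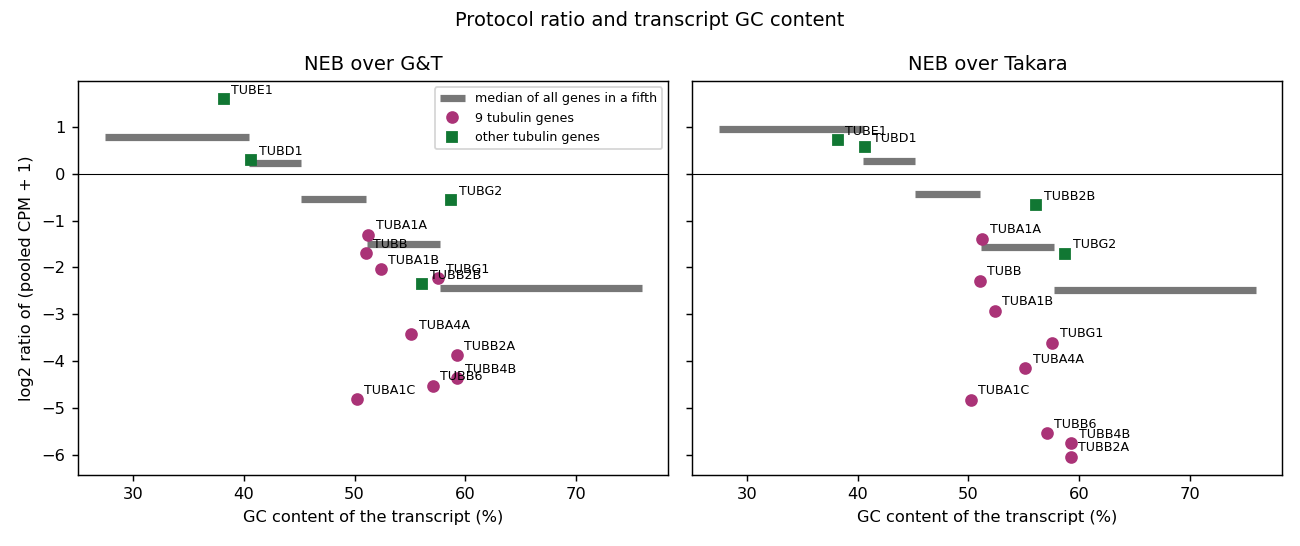
Log2 ratio of pooled CPM + 1 against the GC content of the transcript, with NEB over G&T on the left and NEB over Takara on the right. Grey bars are medians of all tested genes in each quintile of GC content, and 8 of the 9 tubulin genes in each panel lie below the bar of their own quintile, TUBA1A being the one above it.

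With ERCC reads as the measure, the gaps widened, since the ERCC share differed between protocols. There were 0.110 alpha and beta tubulin reads per ERCC read in G&T against 0.366 in Takara and 0.00335 in NEB. Per cell the ranges were 0.0324 to 0.224, 0.143 to 1.07 and 0.00191 to 0.00862, so NEB did not overlap with the others. Less RNA per cell and lower capture of cellular RNA cannot be told apart by this measure.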

How the data were processed

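Raw read counts per gene were used for 40 single T47D cells (13 G&T, 13 Takara and 14 NEB). The authors trimmed the reads with Trim Galore in 2 rounds, mapped them to GRCh38 by STAR and deposited its counts per gene, 1 table per protocol, unfiltered and not normalized. STAR counts a read only where it maps once and to 1 gene. The annotation release and strand setting are not given in the sources used here.

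Cells were kept with at least 1000 genes, a library of at least 600000 reads on genes and spike-ins, at most 30% mitochondrial and at most 25% ERCC reads, which removed 7 wells. CPM was taken over reads on genes, pooled over 11 cells per protocol, with 1 CPM added before log2 ratios and calls at 2-fold. No test or p-value was used, since cells of 1 run are not replicates. Intervals are 95% and exact, cover counting error only, with 3 reads as the limit for a count of 0. The tubulin genes and the gene lists were chosen with earlier results of these data known. Named genes were the 10 tubulin genes, the 3 most abundant of each list and the 5 most alike in pattern. Genes beyond the rule (TBCD, ARL2, TTC5 and TUBB2B) were named after their values were seen. Lengths, positions and sequences came from GENCODE release 44, matching 56104 of 60279 genes. The code was tested on simulated data. Python 3.11.15, numpy 2.4.6, pandas 2.3.3, scipy 1.17.1, Biopython, R 4.3.3, edgeR and DESeq2 (for scaling alone) were used. Alternatives covered cells, pooling, pseudocount, scaling, detection and length. The coding ends of the alpha genes are not reported here.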

Additional observations from a re-analysis of the deposited data

Results flagged for a closer look

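Some wells that failed the quality limits, and so entered no comparison, still held tubulin reads above the limit that a count of 0 allows. In G&T the summed level of the 10 genes was 108 CPM in well C2 (76 reads) and 1411 CPM in well F1 (823 reads, 8 of the 10 genes), where kept G&T cells ran from 1112 to 3628 CPM. In NEB it was 39.9 CPM in well B2 (18 reads) and 753 CPM in well F2 (414 reads, 7 of the 10 genes), where kept NEB cells ran from 291 to 828 CPM. In Takara well C2 it was 522 CPM, from 8 reads among 15325 on genes, with an interval of 225 to 1029 CPM. The wells Takara F1 and NEB F1 had 1 tubulin read each, below their limits.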

How the results depend on the processing

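No paired analysis was possible because the result comes from no test and well names do not pair cells between protocols. The 9 genes stayed at least 2-fold lower in NEB than in both other protocols under all 10 alternatives run for the pooled ratios. For TUBB2A this says little, since it had 0 NEB reads under every alternative and entered through its G&T and Takara reads. The alternatives also draw on largely the same reads. The 4 higher in Takara than in G&T were 3 to 5 under the other alternatives and 9 with ERCC spike-ins as the denominator, which moved the median of all genes by 0.91 log2 for Takara over G&T, -1.98 for NEB over G&T and -2.91 for NEB over Takara. DESeq2 size factors moved it by 0.20 and median cell levels by -0.66 for NEB over G&T, and by 0.10 and -1.09 for NEB over Takara. The alpha and beta sum for Takara over G&T (0.74 log2) came to 0.86 with all deposited cells, 0.69 with mean and 0.51 with median cell levels, 0.80 with TMM, 0.85 with DESeq2 factors, 0.64 with nuclear genes and 1.73 with ERCC. For NEB over G&T (-2.28) it came to -2.16 with all deposited cells, -2.73 with median levels, -2.17 with TMM, -2.04 with DESeq2 factors, -2.39 with nuclear genes and -5.03 with ERCC. For NEB over Takara (-3.01) it came to -3.24 with median levels, -2.89 with DESeq2 factors and -6.76 with ERCC. With all deposited cells, 0 genes had reads in every Takara cell, and 0 had cell ranges without overlap between NEB and G&T or Takara, as removed wells with few reads enter. With ERCC as the denominator 5 genes had no overlap between NEB and G&T. These 3 range alternatives were chosen after seeing the data. Apart from these constructions the cause was not tested.
Of 300 pooled ratios of single genes under an alternative, 177 stayed within the counting interval of the reported value and 123 moved beyond it. Of 81 isotype shares 79 moved by less than 1 SD between cells, and of 104 rho values 91 moved by at most 0.2. That SD is a loose limit, at 38.1 points for TUBA1A in NEB and 13.5 for TUBB in G&T. The order of TUBB and TUBB4B in G&T turned within it, so the count of shares does not show that they are stable. With no filter the share of all genes lower in NEB was 28.4% against G&T and 23.3% against Takara. Genes with next to no reads cannot be called once 1 CPM is added, so these shares are low by construction. They do not make the tubulin counts more unusual. A filter at a mean of at least 10 CPM was also run, and its shares are not given here. The values of TUBB2A in G&T, of TUBB3, and of TUBA4A and TUBB6 in NEB rest on few reads.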

Other observations

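Correlations between pairs of tubulin genes are given as a description over 11 cells of each protocol, which share a plate, and the difference between protocols was not tested. The pairs come from 9 genes in G&T and Takara and from 5 in NEB, and 28 of 36, 31 of 36 and 7 of 10 of them were above 0. The median Spearman rho over 36 pairs was 0.34 in G&T and 0.33 in Takara, and 0.07 over 10 pairs in NEB, where all gene pairs had medians of 0.06, 0.00 and 0.01. The closest pairs were TUBB6 with TUBG1 in G&T (0.85) and TUBA1B with TUBA1C in Takara (0.93). Reads in sequence shared by the members of a pair were set aside in counting, and these values were not corrected for that.

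Takara cell E2 stood apart in its alpha tubulin. It had 833 CPM of TUBA1A, where the next Takara cell had 364, together with the lowest TUBA1B (239 CPM), TUBA1C (96.6 CPM) and TUBB (432 CPM) of the Takara cells and the lowest summed G2 and mitosis genes (200 CPM).

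Of 51 listed tubulin pseudogenes, 14 had reads in G&T cells, 8 in Takara cells and 4 in NEB cells. Their reads came to 2.41%, 1.27% and 3.88% of those on the 10 genes, and TUBA5P had the most in each protocol (322, 381 and 93 reads).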
